A study of Homo sapiens with 2 samples.

Results

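The 10 genes described here form the core of the cellular oxygen-sensing pathway. Each was picked by its symbol, and the choice was made with earlier results of these data known. The genes are the hypoxia-inducible factor (HIF) subunits HIF1A, EPAS1 and ARNT, the prolyl hydroxylases EGLN1, EGLN2 and EGLN3, the von Hippel-Lindau protein gene VHL, and the hypoxia-induced genes CA9, VEGFA and ADM. All 10 were found among the 23709 genes of the table, and 9 of them had a mean level of at least 1 RPKM (a read count divided by transcript length and library size), the minimum for calling a gene expressed. CA9 lay below it. The cells were Caco-2, an established human colorectal adenocarcinoma line, grown in DMEM with fetal bovine serum and antibiotics. No hypoxic treatment and no oxygen level is named in the labels. Polyadenylated RNA was sequenced once from total RNA (the mRNA library) and once from RNA recovered with ribosomes and their nascent chains (RNC-mRNA), a preparation that enriches mRNAs engaged by ribosomes. The comparison asks how strongly each mRNA is represented in the ribosome-bound RNA relative to the total. There is 1 library of each kind, so no difference below has a replicate check or a p-value.

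HIF is a pair of subunits, an alpha subunit that is destroyed when oxygen is present and a stable partner, ARNT. In oxygenated cells the EGLN enzymes hydroxylate prolines of the alpha subunit, VHL recognises the hydroxylated form, and the ubiquitin ligase built around VHL marks it for the proteasome. When oxygen is short the alpha subunit persists, pairs with ARNT and binds a short DNA element near its target genes. Since alpha subunit protein is controlled so largely by its destruction, cells keep making it from mRNA while oxygen is plentiful. In the intestine EPAS1, also called HIF-2 alpha, is known for driving genes of iron uptake.

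The sequences around the start codons are shown for the subunits and hydroxylases because the measurement concerns ribosome-bound mRNA. Each run is on the sense strand and gives 12 bases before the start codon and 8 bases from its first base, with the start codon in capitals. They come from the GENCODE release 29 transcripts (GRCh38) matched to the RefSeq record of each gene in the table.
HIF1A: gaccgattcaccATGgaggg
EPAS1: gccacagcgacaATGacagc
ARNT: gcatctgcggccATGgcggc
EGLN1: gccgccgccgccATGgccaa
EGLN2: gacactgctgccATGgacag
EGLN3: tctgcgggcgagATGcccct
The start codons lie at chr14:61695805-61695807 (plus strand) for HIF1A, chr2:46297912-46297914 (plus) for EPAS1 and chr1:150876565-150876567 (minus) for ARNT. Those of the hydroxylases lie at chr1:231421886-231421888 (minus) for EGLN1, chr19:40800573-40800575 (plus) for EGLN2 and chr14:33950750-33950752 (minus) for EGLN3. HIF1A, ARNT, EGLN1 and EGLN2 have a purine 3 bases before the start codon and a G directly after it, the context usually read as favourable. EPAS1 and EGLN3 do not have that pair of bases. Of 11502 expressed genes with a matched transcript, 45.2% have it.

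The DNA element bound by HIF has the core ACGTG or GCGTG. It was searched on both strands, overlapping matches included, in the 250 bases before the start of each gene in RefSeq (GRCh38.p14). Of the 10 genes, 8 were in that promoter table (all but VHL and VEGFA), and the first listed start of each was used. A core was held by 6 of the 8, against 43.2% of all 35116 listed promoters with the full 250 bases. Such a match is a description of the letters and no measure of binding. The windows of the target genes CA9 and ADM are shown with the core in capitals, read along the plus strand.
CA9: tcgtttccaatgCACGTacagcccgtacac
ADM: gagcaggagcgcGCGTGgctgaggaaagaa
The CA9 window is chr9:35673898-35673927 and its core, ACGTG read on the opposite strand, begins 18 bases before the start. The ADM window is chr11:10304960-10304989 and its core begins 101 bases before the start. A core was found in the searched bases of HIF1A, EPAS1, EGLN1 and EGLN2 as well, and none was found in those of ARNT and EGLN3.

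The libraries held 9640364 reads (mRNA) and 11083302 reads (RNC-mRNA), as worked out from the RPKM values. Of 10 intestinal epithelial markers, 9 reached 1 RPKM in each library, with summed levels of 3479 and 3602 RPKM. KRT20 was below 1 RPKM in both. The 3 fibroblast markers summed to 63.8 and 35.6 RPKM, the 4 leukocyte markers to 13.3 and 8.66 RPKM, nearly all of it LYZ, and the 3 endothelial markers to 4.76 and 2.04 RPKM. Of the erythroid markers, HBB was listed at 0 in both libraries and HBA1 had 0.540 and 1.10 RPKM. In bulk RNA such as this, fewer cells making an mRNA and less of it per cell cannot be told apart, and the part of these other markers in the results was not tested.

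The alpha subunits EPAS1 and HIF1A had the highest translation ratios of the 10 genes, and CA9, EGLN3, VEGFA and VHL lay below the median gene. The translation ratio used here is the RNC-mRNA level over the mRNA level on the log2 scale, with 0.1 RPKM added to each, given relative to the median of the 13402 expressed genes. Each interval is a 95% interval for counting error in the reads, exact where the number of reads is known. Where only a lower bound on the reads is known, as for VEGFA and ADM, the interval rests on that bound and can be too wide. The interval of ADM (0.18 to 1.01) contained the HIF1A ratio of 0.79, and the difference between those genes was not computed. The median ratio of the 9 expressed genes was 0.42, with 6 above and 3 below the median of all genes. EPAS1 was the only one of the 9 at least 2-fold above that median, where 1.37% of all expressed genes lay, and 0 of 9 lay 2-fold or more under it, as did 11.8% of all. The counting interval lay wholly above the median for 5 of the 9 (29.9% of all genes) and wholly below for 3 of the 9 (30.1%). EGLN2 was the exception, with an interval on both sides of the median.

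**Figure D1:**
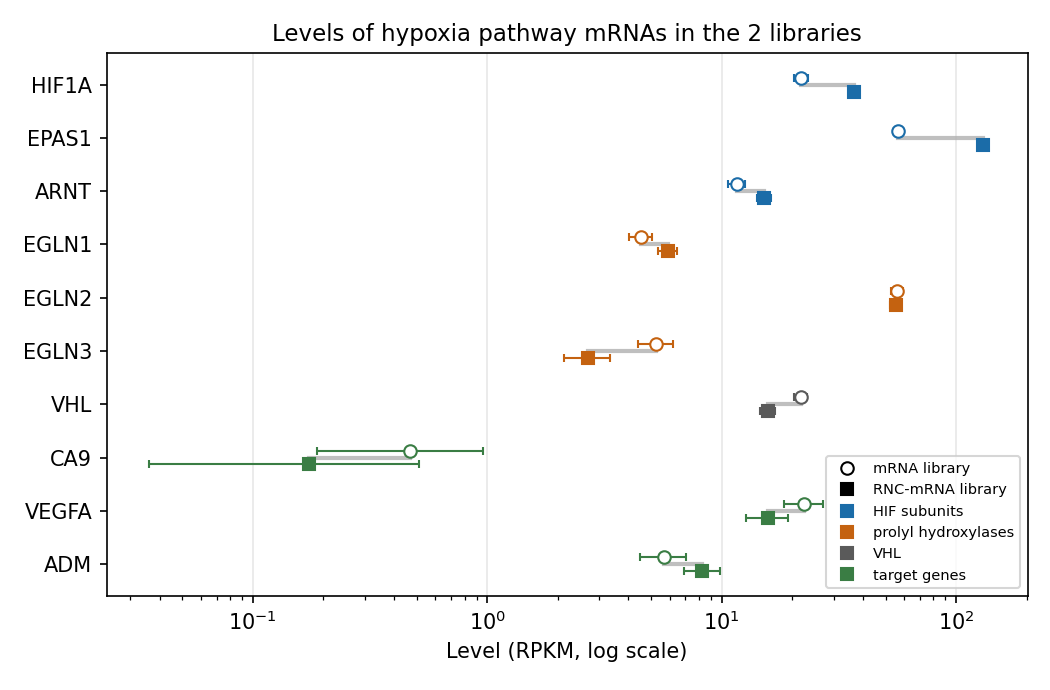
Levels of the 10 genes in RPKM on a log axis, with open circles for the mRNA library, filled squares for the RNC-mRNA library and bars for 95% counting intervals. The bars of VEGFA and ADM rest on lower bounds of their reads. EPAS1 reaches 131 RPKM in the RNC-mRNA library, EGLN2 is at the same level in both, and CA9 lies below 1 RPKM in both.

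EPAS1, the HIF-2 alpha subunit, had 56.3 RPKM in total mRNA and 131 RPKM in RNC-mRNA, on 2804 and 7485 reads. Its ratio was 1.25 (interval 1.19 to 1.32), which is 2.38-fold above the median gene. The ratio of EPAS1 exceeded that of 99.3% of expressed genes. Abundant mRNAs as a group had ratios slightly above the median, so the gene was also set against those of its own level. Among the 1341 genes in the top decile of mean level, 4 had a higher ratio than EPAS1, and its distance from the median of that decile was 1.08. By level, EPAS1 had rank 1287 among all genes in total mRNA and rank 522 in RNC-mRNA.

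HIF1A, the subunit that drives most glycolytic hypoxia genes, had 21.8 RPKM in total mRNA and 36.7 RPKM in RNC-mRNA, on 854 and 1651 reads. Its ratio was 0.79 (interval 0.67 to 0.91), a 1.72-fold excess over the median gene that exceeded the ratio of 97.0% of expressed genes. ARNT, the common partner, had 11.6 and 15.1 RPKM and a ratio of 0.42 (interval 0.26 to 0.58). The 3 ratios differed from one another beyond counting error (differences between genes are given without the added 0.1 RPKM). EPAS1 exceeded HIF1A by 0.47 on the log2 scale (interval 0.33 to 0.60), and HIF1A exceeded ARNT by 0.37 (interval 0.16 to 0.56). EPAS1 exceeded ARNT by 0.83 (interval 0.66 to 1.00).

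The balance between subunit mRNAs differed between the libraries. EPAS1 stood at 2.58 times the level of HIF1A in total mRNA and at 3.56 times its level in RNC-mRNA. EPAS1 and HIF1A together had 6.75 times the level of ARNT in total mRNA and 11.1 times in RNC-mRNA. The remaining family members were scarce. HIF3A, whose shorter products can restrain the other subunits, had 3.01 and 1.21 RPKM, and at -1.21 (interval -1.68 to -0.88) its ratio was on the opposite side of the median from EPAS1, HIF1A and ARNT. ARNT2, an alternative partner, had 0.127 and 0.151 RPKM and was not expressed by the rule used.

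**Figure D2:**
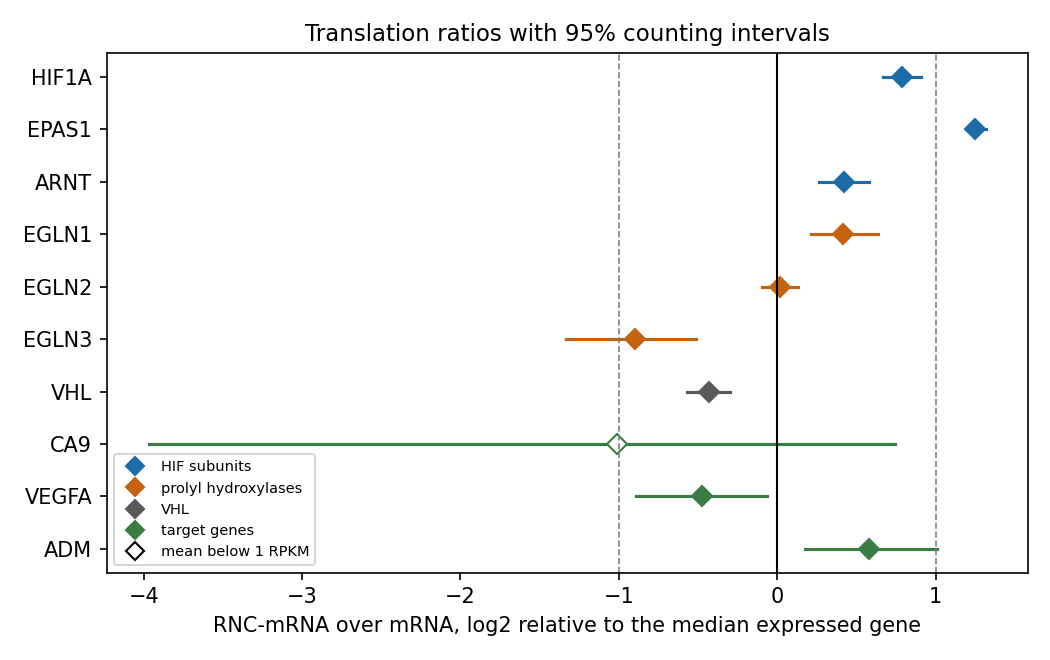
Translation ratios (log2, relative to the median expressed gene) of the 10 genes, with lines for 95% counting intervals and dashed lines at 2-fold. EPAS1 lies at 1.25, beyond the 2-fold line, and the 3 hydroxylases spread from 0.42 to -0.90, while the open CA9 symbol has an interval from -3.97 to 0.75.

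The 3 prolyl hydroxylases did not share a ratio. EGLN1, also called PHD2 and known as the main hydroxylase of HIF1A, had 4.52 RPKM in total mRNA and 5.90 RPKM in RNC-mRNA, on 309 and 464 reads. Its ratio was 0.42 (interval 0.21 to 0.64), equal to that of ARNT to 2 decimals. EGLN2, or PHD1, had 56.0 and 55.3 RPKM on 1213 and 1376 reads, and its ratio of 0.02 (interval -0.09 to 0.13) was that of the median gene. The EGLN2 ratio kept its sign in 4 of 10 alternative settings, and against the median of its own level decile it was -0.15. EGLN3, or PHD3, itself a well-known hypoxia-induced gene, had 5.22 and 2.68 RPKM on 137 and 81 reads. Its ratio was -0.90 (interval -1.34 to -0.51), 1.86-fold below the median gene.

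Each of these ratios differed from the other two beyond counting error. EGLN1 exceeded EGLN2 by 0.40 (interval 0.16 to 0.65), EGLN2 exceeded EGLN3 by 0.94 (interval 0.52 to 1.37) and EGLN1 exceeded EGLN3 by 1.34 (interval 0.88 to 1.81). In level, EGLN2 made up most of the hydroxylase mRNA in both libraries. It held 85.2% of the summed EGLN level in total mRNA and 86.6% in RNC-mRNA. The share of EGLN3 was 7.94% and 4.20%, and that of EGLN1 was 6.87% and 9.23%. The summed EGLN level was 0.842 times that of HIF1A and EPAS1 together in total mRNA and 0.382 times in RNC-mRNA.

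EGLN2 shares its exons with a read-through record, RAB4B-EGLN2, so reads of the shared part could be assigned to either. RAB4B-EGLN2 had 2.18 RPKM in total mRNA and 2.25 RPKM in RNC-mRNA, which is 3.90% and 4.07% of the EGLN2 level. HIF1A-AS2, an antisense RNA at the HIF1A locus, was listed at 0 in both libraries. Outside the EGLN group, HIF1AN, the asparaginyl hydroxylase that blocks the activation domain of the alpha subunits, had 14.3 and 19.7 RPKM and a ratio of 0.50 (interval 0.42 to 0.59). P4HTM, a membrane-bound prolyl hydroxylase, had 9.23 and 5.81 RPKM on at least 29 and 21 reads. The interval of its ratio of -0.62 ran from -1.51 to 0.23, and can be too wide because it rests on that lower bound.

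VHL, the substrate receptor of the ligase, had 21.8 RPKM in total mRNA and 15.7 RPKM in RNC-mRNA, on 957 and 793 reads. Its ratio was -0.43 (interval -0.57 to -0.30), so it lay on the other side of the median from the EPAS1 and HIF1A subunits whose proteins it recognises. The other ligase parts scattered around the median. CUL2, the scaffold, had 10.3 and 14.5 RPKM and the highest ratio of the complex at 0.52 (interval 0.35 to 0.71). TCEB2 and TCEB1, the adaptors elongin B and elongin C, had ratios of 0.16 (interval 0.07 to 0.24) and -0.01 (interval -0.19 to 0.17). TCEB2 was the most abundant part, with 195 and 211 RPKM. RBX1, the RING subunit that recruits the ubiquitin-conjugating enzyme, had 45.3 and 38.0 RPKM and a ratio of -0.21 (interval -0.38 to -0.05).

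The target genes went in different directions. VEGFA, the main angiogenic growth factor, had 22.4 RPKM in total mRNA and 15.7 RPKM in RNC-mRNA, on at least 113 and 91 reads. Its ratio was -0.47 (interval -0.89 to -0.06). ADM, which encodes the vasodilator peptide adrenomedullin, had 5.66 and 8.28 RPKM on at least 79 and 133 reads, and its ratio was 0.58 (interval 0.18 to 1.01), above that of 92.4% of expressed genes. The ratio of ADM exceeded that of VEGFA by 1.06 (interval 0.47 to 1.66).

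CA9, a cell-surface carbonic anhydrase widely used as a marker of HIF1A activity, was barely detected. It had 0.467 RPKM in total mRNA on 7 reads (interval 0.188 to 0.963 RPKM) and 0.174 RPKM in RNC-mRNA on 3 reads (interval 0.0359 to 0.509 RPKM). Its ratio of -1.01 had an interval from -3.97 to 0.75, so no difference between the libraries was detectable at this depth. Neither the difference between CA9 and VEGFA nor that between CA9 and ADM exceeded counting error, with intervals of -1.27 to 3.53 and -0.22 to 4.59 for VEGFA and ADM over CA9.

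Ordered by level in the mRNA library, EPAS1 and EGLN2 came first at 56.3 and 56.0 RPKM, and their counting intervals overlapped. VEGFA, HIF1A and VHL formed a second group between 21.8 and 22.4 RPKM with overlapping intervals. ARNT followed at 11.6 RPKM, clear of its neighbours on both sides. ADM, EGLN3 and EGLN1 lay between 4.52 and 5.66 RPKM with overlapping intervals, that of ADM resting on a lower bound of its reads, and CA9 was last. In the RNC-mRNA library the tie at the top was gone, with EPAS1 at 131 RPKM, EGLN2 at 55.3 RPKM and HIF1A at 36.7 RPKM, and their intervals did not overlap. VEGFA, VHL and ARNT then lay together between 15.1 and 15.7 RPKM. ADM at 8.28 RPKM, EGLN1 at 5.90 RPKM and EGLN3 at 2.68 RPKM were each clear of the next.

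**Figure D3:**
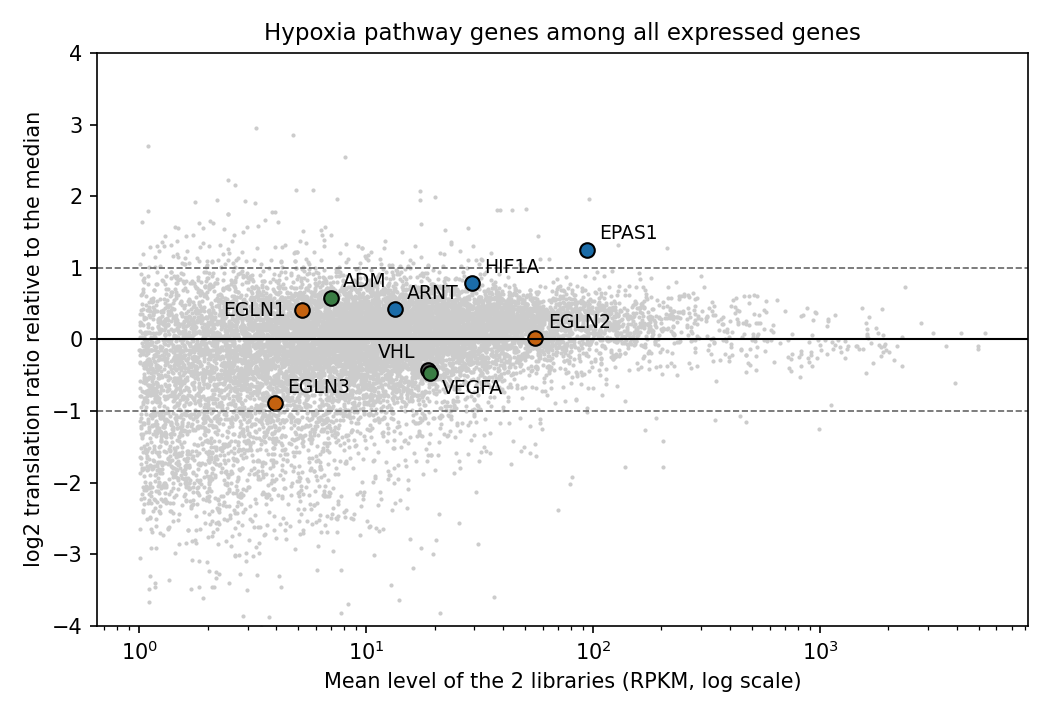
Translation ratio (log2, relative to the median) against mean level (RPKM, log axis) for the 13402 expressed genes in grey, with the 9 expressed pathway genes coloured by role (blue for HIF subunits, orange for hydroxylases, grey for VHL, green for targets). EPAS1 stands above the 2-fold line at 93.5 RPKM, at the upper edge of the genes of its level, and 79 grey genes lie outside the vertical range.

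The mRNA features of the 10 genes differed widely. EGLN1 has a 5' leader of 3156 bases with 45 upstream ATG triplets in the matched GENCODE transcript, against a median of 202 bases and 1 ATG over the 11502 expressed genes with a matched transcript, and its ratio lay above the median gene. The RefSeq start used in the core search for EGLN1 lies nearer to the start codon than this leader reaches. The bases searched there are therefore not those before this transcript. The EPAS1 leader has 510 bases and 1 upstream ATG. That of HIF1A has 265 bases and 0 upstream ATG. VHL has a leader of 840 bases with 6 upstream ATG triplets, and EGLN3 one of 329 bases with 0. The matched transcripts of VHL (3737 bases), HIF1A (3919) and EGLN3 (2709) are shorter than the lengths worked out from the RPKM values (4560, 4059 and 2722). Their untranslated regions may therefore differ from those of the measured records. The 3' untranslated region of HIF1A holds 8 ATTTA pentamers and that of EPAS1 holds 5, against a median of 2. The matched transcript of VEGFA has no 5' leader in this annotation and its coding sequence is annotated from a CTG, so no leader is described for it. Over those 11502 genes, the median ratio was 0.06 for the 6149 with an upstream ATG and 0.01 for the 5353 without.

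Other genes of the pathway were taken from 11 lists of 148 genes, the 10 genes included, of which 147 were in the table. Among the 104 other expressed genes, 41 lay above and 63 below the median, and the median ratio was -0.07. Of the 104, 0 exceeded the median by 2-fold and 9 fell short of it by 2-fold or more. The shares of 2-fold genes over all expressed genes are 1.37% and 11.8%. The counting interval excluded the median upwards for 28 of the 104 (29.9% of all genes) and downwards for 42 (30.1% of all genes).

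Cofactors and stability regulators of HIF had a median ratio of 0.17 in 20 expressed genes, 14 above and 6 below, none of them 2-fold away. The abundant members GNB2L1, a scaffold that promotes oxygen-independent HIF1A degradation, and HSP90AB1, a chaperone of HIF1A, had ratios of 0.03 and 0.10. UBE2S, a ubiquitin-conjugating enzyme reported to target VHL, was highest (145 and 214 RPKM, ratio 0.60). SIAH2, a ubiquitin ligase for EGLN proteins, had 41.0 and 60.3 RPKM and a ratio of 0.59 (interval 0.48 to 0.71). USP33, a deubiquitinating enzyme that binds VHL, was lowest (12.2 and 6.21 RPKM, ratio -0.92).

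The relatives of the 3 target genes were mixed. Of the 15 carbonic anhydrases, 6 were expressed, with a median ratio of -0.27. CA12, the other tumour-associated surface enzyme, had 3.52 and 1.52 RPKM, 7.54 and 8.73 times the CA9 level, and a ratio of -1.12 (interval -1.48 to -0.87). CA11 (10.8 and 7.59 RPKM) and CA8 (8.33 and 7.72 RPKM) had the highest mean levels, with ratios of -0.46 and -0.07, and both belong to the catalytically inactive branch of the family. CA13, a cytosolic form, was highest at 0.66.

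VEGF ligands and receptors had a median of -0.48 in 6 expressed genes, of which 5 were below the median. VEGFB, a relative of VEGFA, had 44.2 and 39.3 RPKM and a ratio of -0.13 (interval -0.28 to 0.01), so it exceeded VEGFA in level in both libraries. PGF, the placental growth factor, had 21.5 and 10.5 RPKM and a ratio of -0.99. VEGFA made up 25.4% and 24.0% of the summed level of VEGFA, VEGFB, VEGFC and PGF. FLT1, a VEGF receptor, had 3.96 and 0.887 RPKM and the lowest ratio of the list at -2.0 (interval -2.52 to -1.74). The co-receptor NRP1 was highest at 0.34. ADM2, the paralog of ADM, had 7.89 and 2.17 RPKM and a ratio of -1.77 (interval -2.15 to -1.50), whereas ADM lay at 0.58. Of the receptor parts for ADM, the receptor itself, CALCRL, was listed at 0 in total mRNA and at under 0.1 RPKM in RNC-mRNA, the accessory protein RAMP2 had 46.7 and 64.1 RPKM (ratio 0.49), and RAMP3 was listed at 0 in both. CRCP, a component of calcitonin gene-related peptide receptor signalling, had 18.0 and 23.9 RPKM and a ratio of 0.44 (interval 0.28 to 0.61).

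**Figure D4:**
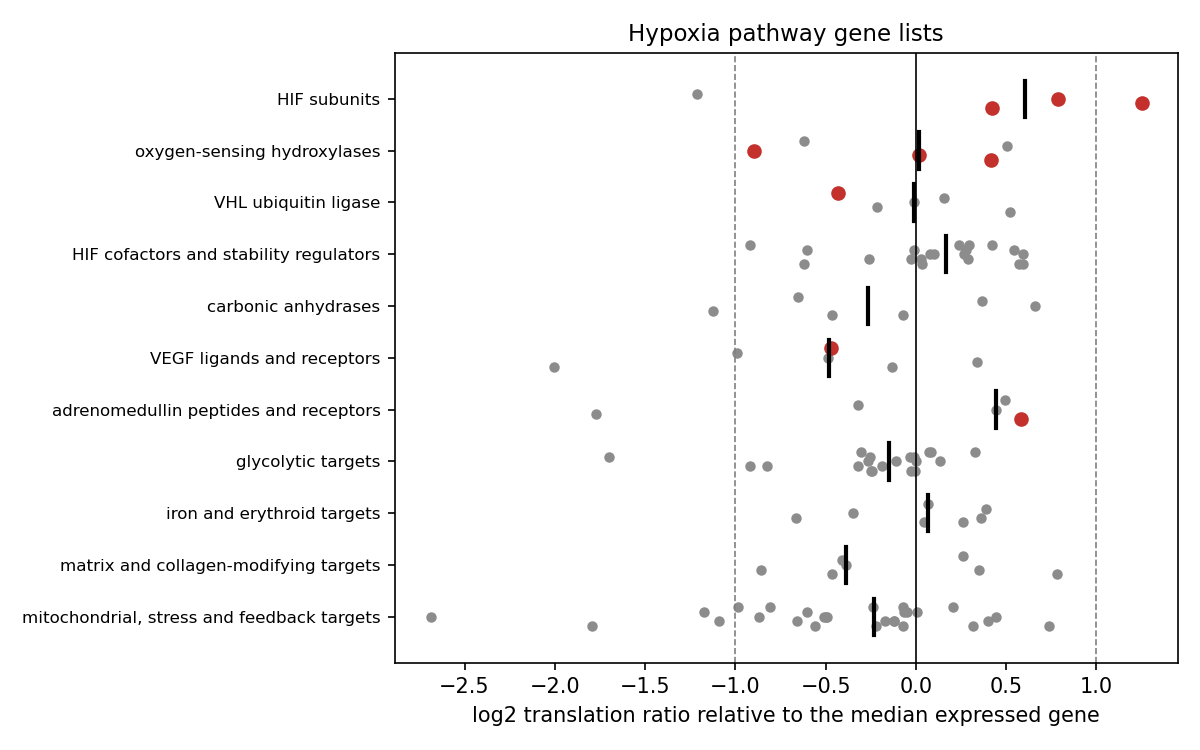
Translation ratios (log2, relative to the median expressed gene) of expressed genes in the 11 pathway lists, with the 10 genes of the core in red where expressed, other genes in grey and a black bar at each list's median. HIF subunits have the highest median at 0.60, and the list of mitochondrial, stress and feedback targets reaches down to -2.69 (the non-coding MIR210HG).

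Known hypoxia-induced genes beyond CA9, VEGFA and ADM had a median ratio of -0.18 in 62 expressed genes, of which 43 had a ratio under 0. Of the 62, 5 lay 2-fold or more under the median, as did 11.8% of all expressed genes. The mitochondrial, stress and feedback targets had 22 of 28 below the median (median -0.23). MIR210HG, the host transcript of the hypoxia-induced microRNA miR-210, had 11.7 and 1.68 RPKM and the lowest ratio of these lists at -2.69 (interval -3.26 to -2.29). Its record is non-coding, so this ratio does not describe translation of a protein, and MIR210HG is among the 5 genes counted above. DDIT4, an inhibitor of mTORC1 signalling, had 40.6 and 11.3 RPKM (ratio -1.79, interval -2.03 to -1.58). HILPDA, a lipid droplet protein, had 23.7 and 10.2 RPKM (-1.17), and BHLHE40, a transcriptional repressor, had 11.6 and 5.26 RPKM (-1.09). AK4, a mitochondrial adenylate kinase, was highest with 12.8 and 20.8 RPKM (0.74, interval 0.62 to 0.86). MIF, a cytokine, and EFNA1, an ephrin ligand, were the most abundant, at 618 and 792 RPKM (0.40) and at 64.5 and 55.7 RPKM (-0.17).

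Glycolytic targets had a median of -0.15 in 20 expressed genes, with the neuronal enolase ENO2 lowest (9.29 and 2.72 RPKM, ratio -1.70) and the mutase PGAM1 highest (261 and 319 RPKM, 0.33). The enzymes GAPDH (5269 and 5435 RPKM) and TPI1 (741 and 759 RPKM) were the most abundant, with ratios of 0.08 and 0.07. SLC2A3, the neuronal-type glucose transporter, had 621 and 600.2 RPKM and SLC2A1, the general one, 175 and 187 RPKM, with ratios of -0.01 and 0.14. Iron and erythroid targets, among them genes that EPAS1 is known to drive, had a median of 0.07 in 7 expressed genes, none of them 2-fold away, and that median was -0.026 with genes of at least 5 RPKM alone and -0.0015 when centred on upper quartiles. TFRC, the transferrin receptor, had 55.6 and 69.5 RPKM (0.36, interval 0.29 to 0.43), and HMOX1, which degrades heme, was highest (35.4 and 45.1 RPKM, 0.39). The duodenal iron importer SLC11A2 had 33.6 and 34.2 RPKM (0.07). EPO, the hormone of red cell production, had 7.80 and 4.75 RPKM and the lowest ratio of the list at -0.67. Its interval ran from -2.31 to 0.86 on at least 10 and 7 reads, and can be too wide because it rests on that lower bound. Matrix and collagen-modifying targets had a median of -0.39 in 7 expressed genes. PLOD1, a lysyl hydroxylase of collagen, was the most abundant (50.4 and 58.9 RPKM, 0.26), and P4HA2, a collagen prolyl hydroxylase, was next (17.7 and 12.9 RPKM, -0.41). CTGF, a matricellular protein, was highest (1.59 and 2.73 RPKM, 0.78).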

How the data were processed

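The deposited table gives RPKM values computed by the authors for 23709 genes, each paired with 1 RefSeq record, per the file headers. Per the submitters' processing notes the build is hg19. The aligner, the counter and the treatment of multiply mapping reads are not given in the sources used here. The kit's strand handling is not stated, so antisense reads cannot be told apart.

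Library totals were taken as the smallest whole number at which the most genes of known GENCODE length held whole reads. That was 2618 genes for mRNA, against 768 at the next total compared (16067273), and 2346 for RNC-mRNA, against 673 (at 18472170). Those next totals are in simple proportion to the totals taken, so no unrelated total is compared. Reads per gene follow from the only transcript length within 25% of the reference at which both values are whole. Where no length or several lengths fit, the fewest reads are given as "at least", allowing a relative error of 2e-07. The median expressed gene rested on at least 275 and 299 reads. Intervals are exact for the reads used (Clopper-Pearson for a ratio, Poisson for a level, conditional odds ratio for the 9 pairs of genes). They use no pseudocount and cover counting error only, since PCR copies are not independent molecules. A unique length was found for 79.3% of expressed genes, and the other intervals rest on the fewest reads and can be too wide. Of the genes whose intervals are printed, this holds for HIF3A, P4HTM, TCEB1, VEGFA, VEGFB, ADM, ADM2 and EPO. Counts of genes whose interval excludes the median mix both kinds.

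A pseudocount of 0.1 RPKM understates ratios of weak genes. The median log2 ratio of expressed genes (mean RPKM of at least 1) was -0.04 and was subtracted. With 1 library per group, a 2-fold distance replaced a test. The labels do not say whether both RNAs came from 1 culture, so a ratio can hold a difference between cultures. Named genes are the 10 core genes, the HIF subunit, hydroxylase and VHL ligase lists, and of each other list the 2 of highest mean level, the highest and lowest ratio and those 2-fold away, with records that overlap a core gene (RAB4B-EGLN2, HIF1A-AS2). PGF, VEGFC, CALCRL, RAMP3, SIAH2, SLC2A1, SLC2A3 and SLC11A2 were added after their values were seen. Of the genes the rule names and of the markers, 1 each is not reported here. The genes and lists were chosen with earlier results of these data known. Scripts used Python 3.11.15, scipy 1.17.1 and numba 0.67.0, and were tested on simulated reads.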

Additional observations from a re-analysis of the deposited data

How the results depend on the processing

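No paired analysis was possible because each group holds 1 library, which also leaves no replicate to drop. The 10 alternatives gave 224 values. Of these, 202 stayed within the counting interval (genes), 1.5 times (counts) or 0.1 (list medians). A reversal was counted only where a gene's reported ratio was at least 2-fold from the median and its sign changed. Only EPAS1 and CA9 could meet that rule, and 0 values did. HIF1A, ARNT, EGLN1, EGLN3, VHL, VEGFA, ADM and CA9 kept their sign under each alternative that gave a value. EPAS1 stayed at least 2-fold above the median, with 1.17 at a mean RPKM of at least 5, 1.35 with no filter, 1.18 centred on upper quartiles and 1.08 against its level decile. EGLN2 ranged from -0.15 (its level decile) to 0.12 and kept its sign in 4 of 10. Genes at least 2-fold above and below numbered 102 and 1046 with a pseudocount of 1 RPKM, 62 and 544 at a mean RPKM of at least 5, and 599 and 3040 with no filter. At a mean RPKM of at least 5, list medians were 0.13 for hydroxylases, -0.15 for carbonic anhydrases and -0.58 for mitochondrial, stress and feedback targets. With no filter they were 0.12 for hydroxylases, 0.091 for the VHL ligase, 0.27 for cofactors, -0.46 for carbonic anhydrases, -0.64 for VEGF genes, 0.058 for adrenomedullin genes, -0.049 for glycolytic and -0.28 for matrix targets. The cause of these shifts was not tested, beyond the different sets of genes that each filter admits. The length alternative gave no value for VEGFA, ADM and CA9, and the level alternative gave none for CA9. Few reads lie behind CA9 (7 and 3), whose ratio was -1.34 with a pseudocount of 0.01 RPKM and -0.29 with 1 RPKM. For EPO only a lower bound on the reads is known (at least 10 and 7).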
